A study of Mus musculus with 10 samples.

Results

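The IFIT family (interferon-induced proteins with tetratricopeptide repeats) was followed in mouse retina after 1 day of damaging light. Its members were the 6 genes of the deposited expression table that are named *Ifit1*, *Ifit2*, *Ifit3*, *Ifit3b*, *Ifit1bl1* and *Ifit1bl2*, out of 54532 genes in all. They were chosen by their values in this same comparison of light with control (their rise in LD), so their own change between the groups is described here and not tested. Whole neural retinas were taken at 2 months of age from BALB/c mice, which are albino and inbred and whose eyes lack the pigment that screens out light. Mice of both groups spent 12 hr in the dark and then 1 day in the light, at 200 lux for the 5 retinas of the normal light group (NL) and at 15000 lux for the 5 retinas of the light damage group (LD). The retinas carry the numbers 1, 4, 5, 7 and 8 in NL and 1, 4, 6, 7 and 8 in LD. The labels do not say which animal each came from, so p-values below measure only the spread between these retinas.

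IFIT genes are silent or low in most resting cells and are among the genes that respond most to type I interferon. Interferon alpha or beta binds the receptor pair encoded by *Ifnar1* and *Ifnar2*, and transcription factors that include STAT2 and IRF9 then bind a short promoter element, the interferon-stimulated response element (ISRE). IRF3 and other interferon regulatory factors can bind the same element after viral RNA or DNA has been sensed. The IFIT proteins are made of tetratricopeptide repeats and bind RNA: IFIT1 grips capped RNA that lacks methylation next to the cap and blocks its translation. Some IFIT proteins can also bind each other. *Ifit3b*, *Ifit1bl1* and *Ifit1bl2* are further mouse copies of *Ifit3* and *Ifit1*.

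All 6 genes lie side by side on chromosome 19, within 99.3 kb from position 34550694 to 34650009 of the GRCm38 genome. In order, these are *Ifit2* (chr19:34550694-34576419, plus strand), *Ifit3* (chr19:34583531-34588731, plus), *Ifit1bl1* (chr19:34592888-34601968, minus), *Ifit3b* (chr19:34607970-34613401, plus), *Ifit1bl2* (chr19:34617049-34640743, minus) and *Ifit1* (chr19:34640871-34650009, plus). The transcripts with the longest coding sequence have 2 or 3 exons and 1209 to 1410 coding bases. *Ifit3* and *Ifit3b* are nearly the same gene: 1198 of 1209 coding bases were identical (99.1%). *Ifit1bl1* and *Ifit1bl2* shared 87.4% of their aligned coding bases with each other and 72.9% and 72.5% with *Ifit1*, and the remaining pairs shared 45.6 to 52.9%. Of the stretches of 150 bases, the length of a sequencing read, 18.5% of those in the *Ifit3* transcript were also in *Ifit3b*, and 1.24% of those in *Ifit1* were also in *Ifit1bl2*. A read from such a stretch cannot be placed on 1 gene by its sequence alone, so the split of reads within these pairs is uncertain.

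The promoters of the family are shown here because they were searched for the element through which interferon acts. RefSeq windows on GRCm38.p6, running from 250 bases before to 50 bases after each annotated start, were found for all 6 genes (9 windows in all). The ISRE was searched on both strands as GAAA, any 2 bases and a second GAAA, and it lay in a window of 5 of the 6 members, *Ifit2* being the exception. Of 27025 genes with such windows, 3.99% held it in at least 1, and of the 32851 windows 3.44% did. In 4 members, all but *Ifit2* and *Ifit1bl1*, at least 1 of these matches was part of a longer form, in which AG comes directly before the reverse complement of the ISRE, and which 0.303% of all genes held. The sequences below are written 5′ to 3′ along the strand of the gene named, in the reference genome of another strain (C57BL/6J), with the ISRE letters in capitals. They appear there as the reverse complement of the searched form.
*Ifit1*, chr19:34640744-34640870, plus strand: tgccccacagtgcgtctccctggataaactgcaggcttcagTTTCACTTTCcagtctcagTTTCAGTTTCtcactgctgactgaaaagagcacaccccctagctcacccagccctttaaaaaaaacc
*Ifit3*, chr19:34583353-34583436, plus strand: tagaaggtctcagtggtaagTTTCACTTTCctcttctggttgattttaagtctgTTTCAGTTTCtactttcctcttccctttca
*Ifit3b*, chr19:34607749-34607832, plus strand: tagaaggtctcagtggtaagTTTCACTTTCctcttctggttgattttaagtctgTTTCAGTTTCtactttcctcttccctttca
*Ifit1bl1*, chr19:34602043-34602092, minus strand: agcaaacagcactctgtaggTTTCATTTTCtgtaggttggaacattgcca

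The sequence given for *Ifit1* is the whole interval between the ends of *Ifit1bl2* and *Ifit1* that face each other in the deposited table, and the genes are read away from each other. Their RefSeq starts, at 34640743 and 34640889, are 145 bases apart, and the same ISRE pair lies between them. It sits 104 to 95 and 85 to 76 bases before the start of *Ifit1*, and 51 to 42 and 70 to 61 bases before the start of *Ifit1bl2*. The 84 bases shown for *Ifit3* and *Ifit3b* were identical at every position. *Ifit1*, *Ifit1bl2*, *Ifit3* and *Ifit3b* each held the ISRE 2 times in a window, while 0.225% of all windows held it more than once. *Ifit1bl1* held a single match in each of its 2 windows, neither in the longer form. In *Ifit2* neither window held these letters. A match to GAS, a promoter element of the response to interferon gamma, searched as TTCNNNGAA, lay 241 to 233 bases before its start and in no other member. GAS letters were in 8.30% of all windows, and the letters of any match say nothing of whether a factor was bound.

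**Figure D1:**
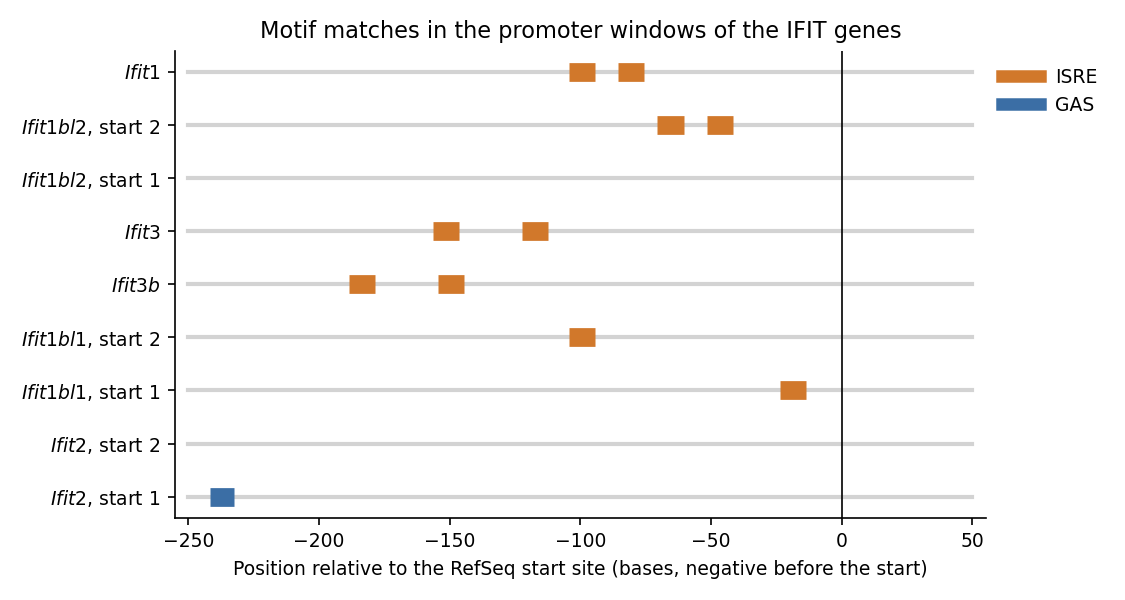
Positions of the ISRE (orange) and GAS (blue) matches in the 9 RefSeq promoter windows of the IFIT genes, in bases from each annotated start (vertical line at 0, negative values before the start, grey bars the windows searched). Genes with 2 annotated starts have 2 rows, and the pairs of orange boxes of *Ifit1* and *Ifit1bl2* are the same bases seen from opposite sides.

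The authors deposited FPKM (fragments per kilobase of gene length, corrected for library depth), which can be compared between genes because it is per length, and the whole reads behind each value were recovered from it. Each NL retina gave 21343389 to 26832535 reads on genes, and each LD retina 18965090 to 23378090. Changes are given as the difference of log2(FPKM + 0.1) between the group means, LD minus NL, with its standard error (SE). A gene was called changed in limma when its fold change exceeded 2 and its p stayed under 0.01 after Benjamini-Hochberg adjustment over the 24508 genes with at least 0.1 FPKM in 5 retinas. On this scale the median change of all genes tested was -0.012, and it was 0.109 without the factors per retina that the deposited values carry, a shift that adds about as much to each change below.

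*Ifit1*, the cap-binding member, was close to silent in the NL retinas and abundant in the LD retinas. In NL-1, NL-4, NL-5, NL-7 and NL-8 it was at 0.352, 0.230, 0.260, 0.390 and 0.409 FPKM, or 13 to 28 reads per retina. In LD-1, LD-4, LD-6, LD-7 and LD-8 it was at 29.7, 28.6, 31.4, 30.0 and 20.6 FPKM, or 1217 to 1924 reads. Every LD retina stood far above every NL retina, the lowest LD value being 50.4 times the highest NL value. The means were 0.328 ± 0.0793 FPKM (SD, n = 5) in NL and 28.1 ± 4.29 FPKM (n = 5) in LD, a ratio of 85.5 and a log2 change of 6.04 (SE 0.15). This change ranked 1 among the 24508 genes tested on this scale, and between 1 and 15 over the other settings and subsets of retinas that were tried.

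*Ifit3* was the most abundant member after light damage. Its NL values were 5.09, 3.97, 3.22, 3.13 and 4.13 FPKM, and its LD values were 102, 100, 110, 101 and 88.0 FPKM, in the same order of retinas. The groups did not overlap, and the 5 LD retinas varied little, with a coefficient of variation of 7.95%. From a mean of 3.91 ± 0.796 to one of 100 ± 7.96 FPKM (SD, n = 5 each), the ratio was 25.6 and the log2 change 4.66 (SE 0.12).

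Its near copy *Ifit3b* moved with it at a lower level. *Ifit3b* was at 2.06, 2.05, 1.50, 1.58 and 2.07 FPKM in the NL retinas and at 31.0, 28.4, 30.7, 30.1 and 25.4 FPKM in the LD retinas. All LD values were again above all NL values, with a ratio of means of 15.7 and a log2 change of 3.91 (SE 0.10). Per retina, *Ifit3b* stood at 0.404 to 0.516 of the FPKM of *Ifit3* in NL and at 0.279 to 0.306 in LD. These ranges did not overlap, and they depend on how reads from the stretches common to both genes were assigned.

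*Ifit2*, whose protein binds AU-rich RNA, had nearly the level of *Ifit3* under normal light and the smallest ratio among the 5 members whose groups were apart. It was at 3.85, 3.56, 3.30, 2.82 and 3.38 FPKM in the NL retinas, and at 20.5, 20.1, 18.1, 22.1 and 17.2 FPKM in the LD retinas. The groups did not overlap. The ratio of means was 5.79 and the log2 change 2.50 (SE 0.09), with the smallest SE of the family.

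The remaining *Ifit1* copies stayed rare. *Ifit1bl2* was at 0.0417, 0.0699, 0.0146, 0.140 and 0.0230 FPKM in the NL retinas, which is 1 to 10 reads, and at 1.11, 0.806, 0.651, 0.795 and 0.440 FPKM in the LD retinas, which is 33 to 91 reads. All LD values lay above all NL values, yet its FPKM was on average 0.0268 of that of *Ifit1* in the LD retinas. Its log2 change was 2.45 (SE 0.27) with a pseudocount of 0.1, 0.72 with a pseudocount of 1 and 3.75 with one of 0.01, while the ratio of means was 13.1, so the size of its change is poorly fixed. It reached 0.1 FPKM in 6 retinas, that is in all LD retinas and in NL-7, and thus passed the filter on low values through the group where it was high.

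*Ifit1bl1* showed no such separation. It was at 0.185, 0.290, 0.0866, 0.207 and 0.0852 FPKM in NL and at 0.397, 0.0867, 0.216, 0.386 and 0.395 FPKM in LD, or 4 to 14 and 4 to 22 reads. The groups overlapped, with LD-4 as low as the lowest NL retinas. The ratio of means was 1.73 and the log2 change 0.52 (SE 0.33). At such counts a change of moderate size would not have been detectable. In all, 5 of the 6 members, all but *Ifit1bl1*, were past both limits for a called gene and had every LD retina above every NL retina. The shares among all genes tested were 4.13% called higher and 11.8% with every LD retina above every NL retina. These counts come from the contrast by which the family was picked and carry no weight of their own.

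**Figure D2:**
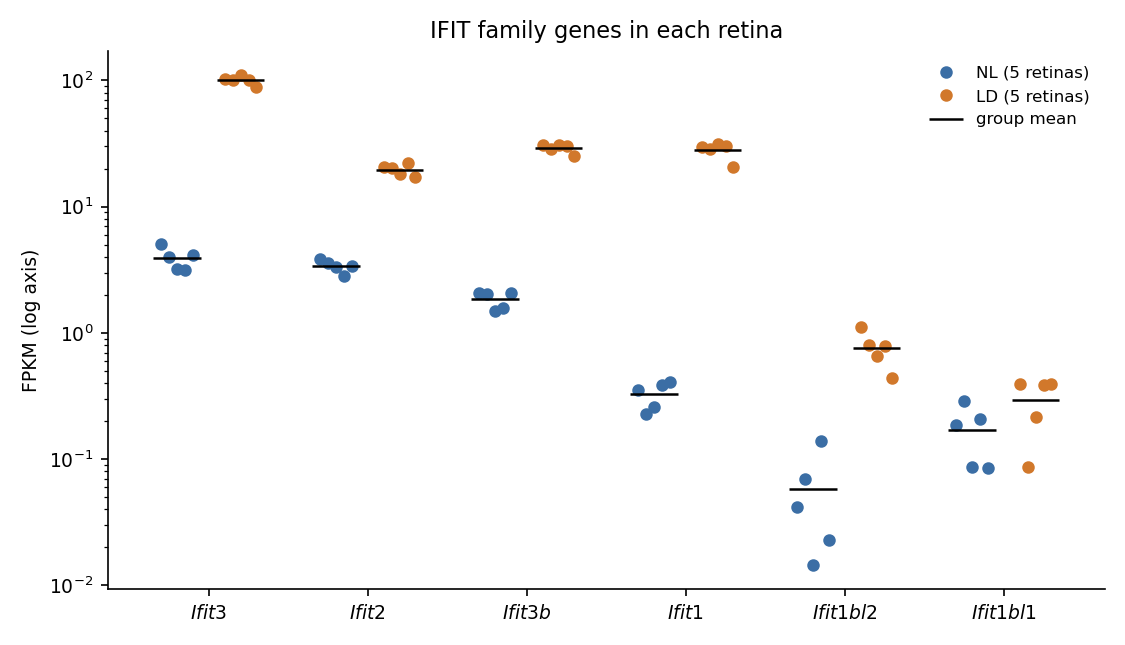
FPKM of the 6 IFIT genes in each of the 5 NL (blue) and 5 LD (orange) retinas on a log axis, retinas from left to right in the order of their numbers, with black lines at the group means. *Ifit3* reached 88.0 to 110 FPKM in LD, *Ifit1* was at 0.230 to 0.409 FPKM in NL and 20.6 to 31.4 FPKM in LD, and the groups overlapped only for *Ifit1bl1*.

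The order of the levels changed with light. Under normal light *Ifit3* and *Ifit2* led, with ranges that overlapped and *Ifit3* above *Ifit2* in 4 of 5 retinas, followed by *Ifit3b*, whose range was apart from both. *Ifit1*, *Ifit1bl1* and *Ifit1bl2* followed, each overlapping the next. After light damage *Ifit3* stood alone at the top. *Ifit3b* and *Ifit1* came next with overlapping ranges, *Ifit3b* being higher in 3 of 5 retinas, and then *Ifit2*, whose range overlapped that of *Ifit1* although *Ifit1* was higher in 5 of 5 retinas. *Ifit1bl2* and *Ifit1bl1* closed the order with ranges apart.

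The summed FPKM of the family was 8.26 to 11.6 in NL and 152 to 191 in LD, or 457 to 670 and 7320 to 9830 reads per retina. *Ifit2* gave 33.2 to 39.4% of this sum in NL but 9.46 to 12.0% in LD. *Ifit1* went the other way, from 2.27 to 4.72% up to 13.5 to 16.4%, and *Ifit3* from 37.9 to 44.0% up to 54.7 to 57.9%. None of these 3 shares overlapped between the groups, and *Ifit3* and *Ifit2* made up most of the sum in the NL retinas. The share of *Ifit3b* was 17.8 to 20.5% in NL and 15.9 to 16.8% in LD, where its mean of 16.4% was close to the 15.7% of *Ifit1*.

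**Figure D3:**
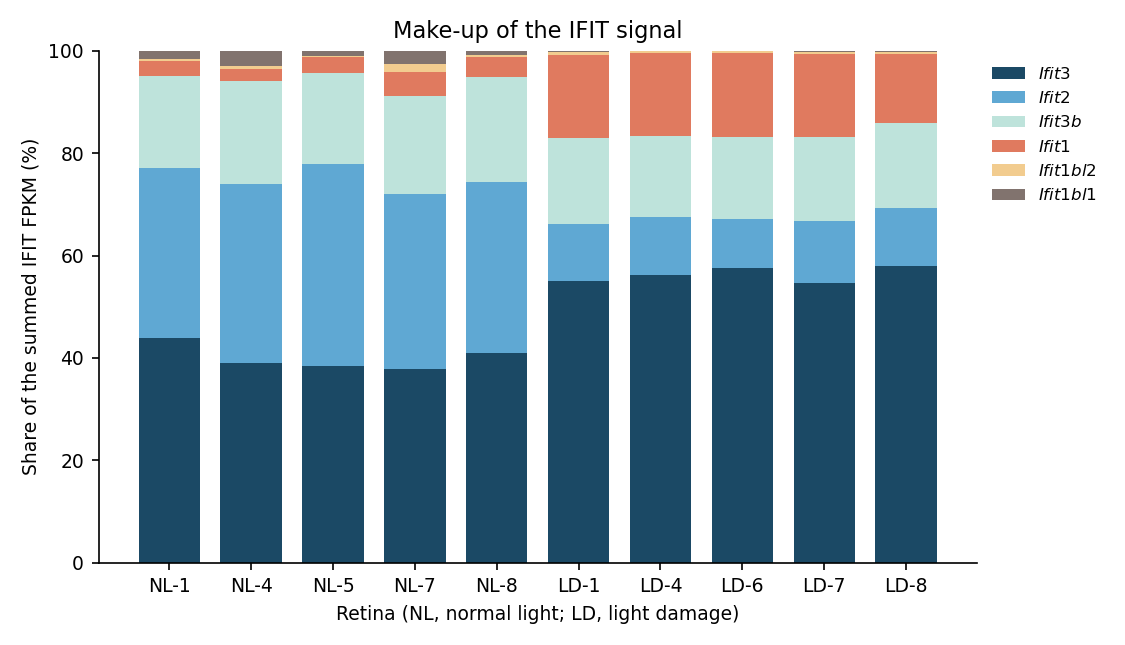
Share of each IFIT gene in the summed IFIT FPKM of each retina, in percent of the sum, for the 5 NL retinas on the left and the 5 LD retinas on the right. *Ifit2* (light blue) made up 33.2 to 39.4% in NL and 9.46 to 12.0% in LD, and *Ifit1* (red) at most 4.72% in NL and at least 13.5% in LD.

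Within the groups, some members varied together from retina to retina. After centring each gene on its group means, Pearson's r over the 10 retinas was 0.87 for *Ifit3* with *Ifit3b*, whose transcripts share read-length stretches. For *Ifit2* with *Ifit3* r was 0.68, and for *Ifit2* with *Ifit3b* it was 0.66. It was between -0.30 and 0.45 for the other pairs, and these values are given as a description with no test. LD-8 was the lowest LD retina for 5 of the 6 members, at 68.8% of the mean of the other LD retinas for *Ifit1*, 52.4% for *Ifit1bl2* and 84.3 to 85.3% for *Ifit2*, *Ifit3* and *Ifit3b*. For *Ifit1bl1* it was among the highest. LD-8 was also the lowest LD retina for 10 of 10 microglia and macrophage markers, and the part of those cells in the IFIT values was not tested. Without LD-8 the log2 changes were 6.15 for *Ifit1*, 2.55 for *Ifit2*, 4.71 for *Ifit3*, 3.96 for *Ifit3b*, 2.61 for *Ifit1bl2* and 0.41 for *Ifit1bl1*. When each of the 10 retinas was left out in turn, LD-8 included, the log2 change was 5.96 to 6.15 for *Ifit1*, 2.44 to 2.55 for *Ifit2*, 4.59 to 4.76 for *Ifit3*, 3.85 to 3.96 for *Ifit3b*, 2.32 to 2.61 for *Ifit1bl2* and 0.39 to 0.76 for *Ifit1bl1*.

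The genes whose values followed the mean of the members most closely within the groups, among 16229 genes that averaged 1 FPKM or more in either group, were *Snhg10*, *Gm29266*, *Gm2623*, *Dnajc10*, *Gm48194*, *Dkc1*, *Cog7*, *Ggact*, *Snrpd3* and *Gm23098*, with r from 0.91 to 0.95 over the 10 retinas. They were picked as the highest of 16229 values, so the size of their r carries no weight of its own. The mean also gave full weight to *Ifit1bl1* and *Ifit1bl2*, which fell to 4 reads and 1 read in a retina. Likeness to the family was not tested. None of these 10 was called changed. *Snhg10*, the host of a small nucleolar RNA, was at 8.17 FPKM in NL and 6.65 FPKM in LD on average (adjusted p = 0.130 in limma).

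The other genes of the interferon pathway were taken by role from lists of 90 genes, all present in the table, of which 68 passed the filter. The lists were chosen with earlier results of these data known, and some genes passed the filter only through the LD retinas. The counts below are therefore a description. Of the 68, 35 were called higher and 0 lower in limma. Among all genes tested, 4.13% were called higher and 2.37% lower. By limma-voom on the recovered reads, 36 were called. LD-8 was the lowest LD retina for 15 of the 35, including 8 of 15 effectors, 4 of 8 sensors, 2 of 4 feedback inhibitors and 0 of 6 transcription factors. At an adjusted p under 0.05 with no limit on the fold, 47 of the 68 were higher and 5 lower. Among all 24508 genes tested, 3543 were higher and 3275 lower at that limit.

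The ligands were scarcely seen. Of the 18 type I interferon genes of the list, 12 had no read in any retina, and the reads of all 18 together numbered 0 to 3 in an NL retina and 1 to 4 in an LD retina. *Ifnb1*, encoding interferon beta, had 0 reads in every NL retina and 0 to 3 in the LD retinas. A count of 0 allows up to 3 reads, so that no difference in the ligands was detectable at this depth. Of the type II and III genes, *Ifng* and *Ifnl2* had at most 1 read in a retina and *Ifnl3* had none. In the same LD retinas *Ifit1* alone had at least 1217 reads. Retinas were taken only once, after 1 day, and earlier times were not measured.

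Among the 9 receptor and kinase genes, 2 were called higher and 0 lower, with a median log2 change of 0.11. *Ifnar1*, the subunit of the type I receptor that binds TYK2, was at 10.5 FPKM in NL and 11.1 FPKM in LD on average, a log2 change of 0.08 (SE 0.05, adjusted p = 0.332 in limma). Its partner *Ifnar2* rose from 2.05 to 4.62 FPKM, by 1.12 (SE 0.16, adjusted p = 4.41e-04), and each LD value exceeded each NL value. *Ifnlr1*, the receptor of type III interferon, was called at 0.0616 FPKM in NL and 0.313 FPKM in LD (log2 change 1.34, SE 0.27, adjusted p = 0.00374). This call was lost on leaving out NL-1, LD-4, LD-6 or LD-7, where the log2 change was 1.22 to 1.30 and the adjusted p 0.0102 to 0.0116. It was also lost with the closest pairs of retinas averaged (1.32, adjusted p = 0.0273) and with a pseudocount of 1 (0.30). The kinases *Jak1* (-0.07, adjusted p = 0.0928), *Jak2* (0.11, adjusted p = 0.308) and *Tyk2* (0.03, adjusted p = 0.671) were not called. *Ifngr2* (0.44) and *Il10rb* (0.87) had adjusted p of 0.00169 and 0.00253 but were under the limit on the fold, and *Ifngr1* was at -0.09 (adjusted p = 0.293).

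Of the 8 transcription factors described, 6 were called higher and 0 lower, with a median log2 change of 2.48. *Stat2* and *Irf9*, whose proteins act at the ISRE, both rose. *Stat2* went from 12.8 to 54.2 FPKM, by 2.06 (SE 0.07, adjusted p = 4.19e-08 in limma), and *Irf9* from 4.78 to 36.0 FPKM, by 2.89 (SE 0.10, adjusted p = 3.25e-08). *Irf7*, which amplifies the interferon response, rose most, from 2.41 to 37.4 FPKM (log2 change 3.90, SE 0.27, adjusted p = 3.01e-06). *Irf1* (3.52) and *Irf8* (3.24), the latter a factor of myeloid cells, rose as well. *Irf3*, which acts without new synthesis once it is phosphorylated, was not called, at 22.0 FPKM in NL and 17.7 FPKM in LD (-0.32, adjusted p = 0.00215).

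Of the 12 sensors of foreign nucleic acid and their adaptors, 8 were called higher and 0 lower, with a median of 1.73. The largest changes were those of *Zbp1* (3.97), which binds Z-form nucleic acid, and of the cytosolic RNA sensors *Ddx58* (3.82), encoding RIG-I, and *Ifih1* (3.65), encoding MDA5, together with their relative *Dhx58* (2.61). Their adjusted p were 9.28e-08, 7.32e-08, 2.64e-06 and 1.05e-06 in limma. *Zbp1* had 2 to 5 reads per NL retina and passed the filter through the LD retinas. So did *Tlr7*, also called, which was under 0.1 FPKM in every NL retina. The change of *Zbp1* was 1.61 with a pseudocount of 1, below the 2.98 of *Ddx58* and the 2.22 of *Ifih1* on that scale. In limma-voom it was 5.42. *Mavs*, the mitochondrial adaptor of RIG-I and MDA5, was not called and stood at 8.50 FPKM in NL and 6.81 FPKM in LD (-0.32, adjusted p = 0.00850).

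All 4 genes listed as feedback inhibitors were called higher, with a median of 4.50. *Isg15* was put in this list as the modifier that USP18 removes, and not as an inhibitor itself. *Usp18*, which removes ISG15 from proteins and blocks IFNAR2 signalling, rose by 5.08 (SE 0.22), *Isg15*, the ubiquitin-like modifier, by 4.54 (SE 0.22), *Socs3* by 4.46 (SE 0.22) and *Socs1* by 3.10 (SE 0.19), with adjusted p from 1.15e-07 to 1.57e-06 in limma. *Socs3* also responds to cytokines that act through STAT3. In FPKM, *Isg15* went from 1.23 to 31.4 and *Usp18* from 0.455 to 18.0, close to the LD level of *Ifit1* and *Ifit2*.

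Of 18 other antiviral effectors induced by interferon, 17 passed the filter and 15 were called higher, 0 lower, with a median of 3.58. Among those called, *Mx1*, *Oasl1* and *Ifi44* were under 0.1 FPKM in every NL retina and passed the filter only through the LD retinas. The largest changes were those of *Mx2* (5.96), a dynamin-like GTPase, *Rtp4* (5.62), *Bst2* (5.24), the tether that holds budding virus at the cell surface, and *Oasl2* (4.90), with adjusted p from 1.70e-08 to 6.56e-07 in limma. *Bst2* was at 107 FPKM in LD, near the 100 FPKM of *Ifit3*. The log2 change of *Ifit1* (6.04) was close to that of *Mx2*, those of *Ifit3* (4.66) and *Ifit3b* (3.91) lay within the range of the effectors called, and so did that of *Ifit2* (2.50).

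The genes for the machinery on which IFIT proteins act had small changes. Of 18 genes for enzymes that methylate the mRNA cap and for subunits of the initiation factor eIF3, which IFIT1 and IFIT2 bind, 0 were called in either direction, and the median was 0.04. *Cmtr1*, the cap methyltransferase that gives mRNA the mark IFIT1 reads as self, was at 1.43 FPKM in NL and 1.76 FPKM in LD (0.29, SE 0.12, adjusted p = 0.103 in limma). With no limit on the fold, 6 of the 18 had an adjusted p under 0.01, 5 of them higher and 1 lower, and the log2 changes of all 18 lay between -0.27 and 0.51. *Eif3c* was higher by 0.44 (SE 0.05, adjusted p = 5.17e-05) and *Eif3e* was lower, at -0.27 (SE 0.05, adjusted p = 0.00422).

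**Figure D4:**
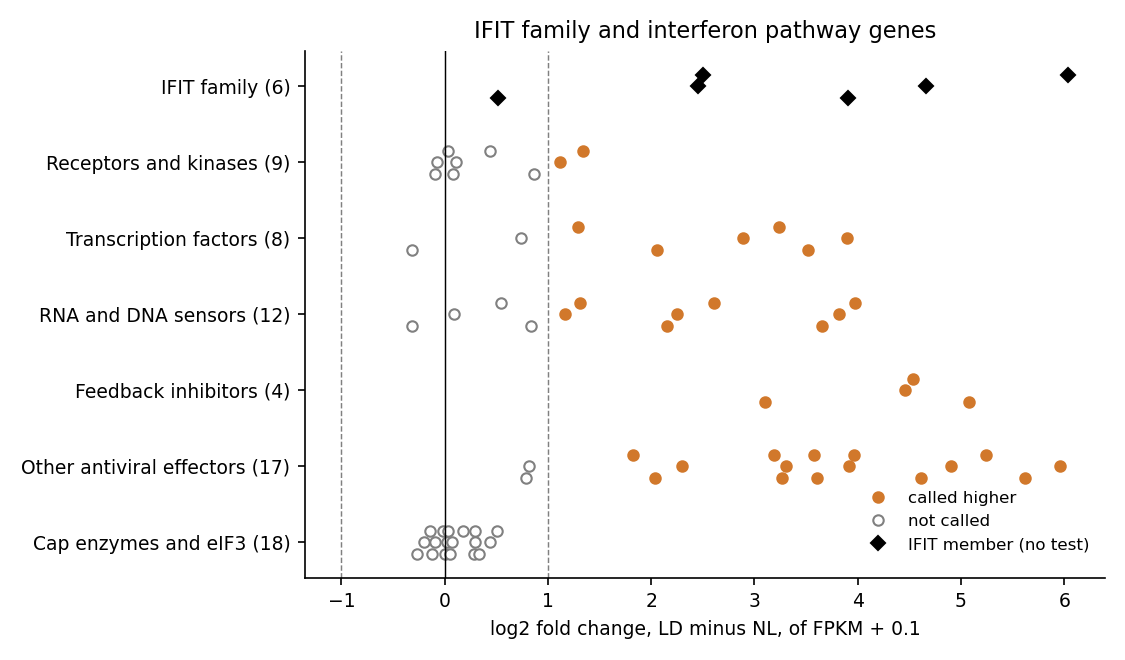
Log2 change (LD minus NL, of FPKM + 0.1) of the 6 IFIT genes (diamonds, not tested) and of each tested gene of the interferon pathway lists, with the number of genes per list in parentheses, filled circles for genes called higher and open circles for the others. Dashed lines mark a fold change of 2. All 4 genes listed as feedback inhibitors and 15 of 17 effectors were called, while the 18 cap and eIF3 genes clustered around 0.

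The IFIT cluster was also set against its neighbours. Within 500 kb on either side lie 20 other genes of the table, of which 8 passed the filter. Of these 8, 2 were called higher and 0 lower, where the shares among all genes tested were 4.13% and 2.37%. *Ch25h*, which makes the antiviral sterol 25-hydroxycholesterol and has its far end 76.9 kb before the start of *Ifit2*, was at 0 to 1.56 FPKM in NL and at 3.62 to 5.72 FPKM in LD (log2 change 4.09, SE 0.68, adjusted p = 0.00123 in limma). Its NL range was set by NL-1, the highest NL retina also for 8 of 10 microglia and macrophage markers, and without that retina the change was 4.77 (SE 0.37). The part of those cells in this value was not tested. Its call was lost on averaging the closest pairs of retinas, where the change was 3.81 and the adjusted p 0.0250 (range over all the settings 2.13e-05 to 0.0250). *Fas*, the death receptor, rose from 0.204 to 1.66 FPKM, by 2.51 (SE 0.24, adjusted p = 3.09e-05). *Lipa*, the gene next to *Ifit2*, which encodes lysosomal acid lipase, was at 5.43 FPKM in NL and 7.98 FPKM in LD, a difference of 0.54 (SE 0.08, adjusted p = 4.06e-04) that stayed under the limit on the fold. *Slc16a12*, a monocarboxylate transporter and the next gene beyond *Ifit1*, was at 0.264 FPKM in NL and 0.169 FPKM in LD (-0.04, SE 0.53, adjusted p = 0.967). *Stambpl1* (0.47), *Acta2* (-0.48), *Pank1* (0.07) and *Kif20b* (-0.39) were not called, with adjusted p of 0.0260, 0.481, 0.749 and 0.0837.

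**Figure D5:**
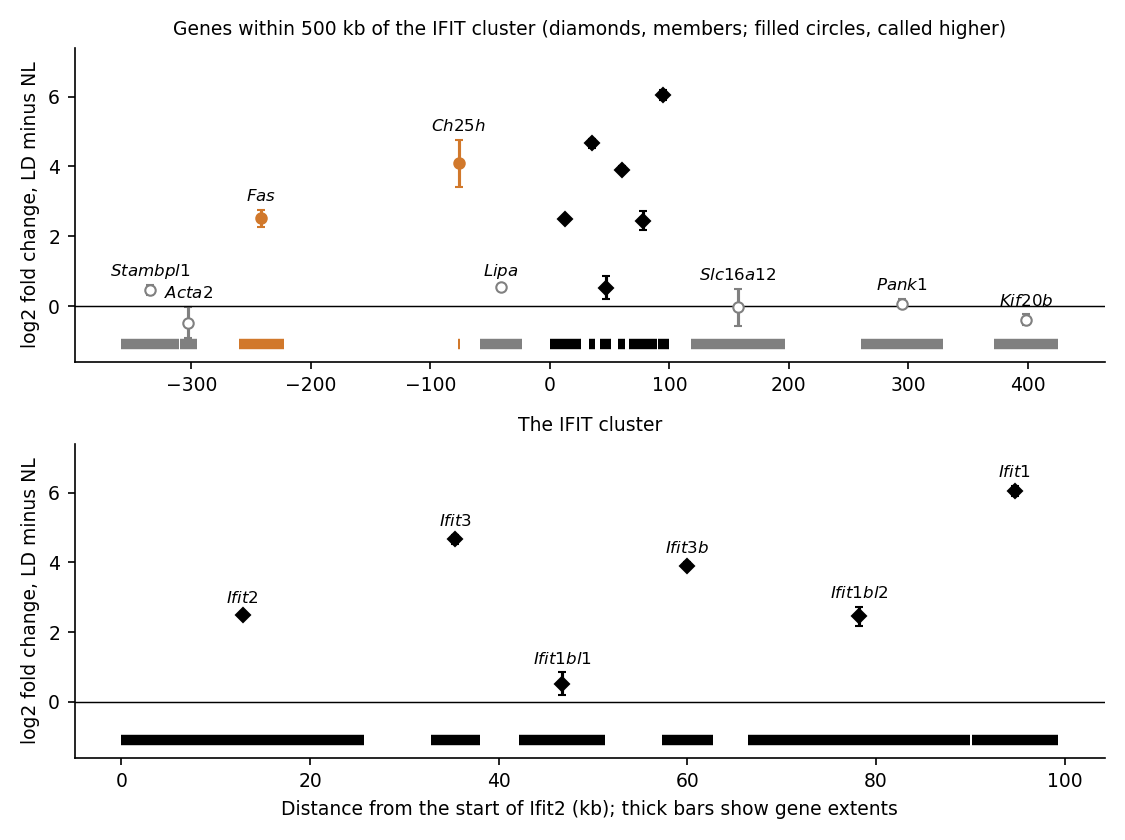
Log2 change (LD minus NL, with bars of 1 SE) of the tested genes within 500 kb of the IFIT cluster, above, and of the cluster itself, below, against the distance from the start of *Ifit2* in kb, with thick bars for the extent of each gene. The members (diamonds, not tested) range from 0.52 for *Ifit1bl1* to 6.04 for *Ifit1*, and of the neighbours only *Ch25h* and *Fas* (filled circles) were called.

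The samples are whole retina, and in such bulk RNA fewer cells of a type and less RNA per cell cannot be told apart. The labelled tissue was borne out by its markers: the 8 rod genes summed to 8070 to 9880 FPKM in NL, and all 8 were called lower in LD, where they summed to 1190 to 2410 FPKM. Of 10 microglia and macrophage markers, 7 were called higher, and their sum went from 21.3 to 37.6 FPKM up to 48.0 to 122 FPKM. *P2ry12* (-0.74) and *Tmem119* (0.22), which mark resident microglia, and *Csf1r* (0.74) were not called. *Cx3cr1* (1.14) was among the 7 called. The shares among all genes tested were 4.13% called higher, 2.37% called lower and 11.8% with every LD retina above every NL retina. The 8 markers of recruited monocytes and neutrophils summed to 0.133 to 0.413 FPKM in NL and 0.647 to 1.29 FPKM in LD. Of the 3 tested, 1 was called higher (*Plac8*, on 5 to 12 reads per LD retina). *Plac8* did not exceed 0.0309 FPKM under normal light, so it was admitted to the test only by the group in which it was high. *Ly6c2*, at 0 reads in every NL retina and 4 to 17 in LD, was under the filter. So was *Ccr2*, at 0 to 1 and 2 to 21 reads, and both had every LD retina above every NL retina. The other markers of this list did not separate. *S100a8* (1.02, adjusted p = 0.121 in limma) and *S100a9* (-0.16, adjusted p = 0.792) were not called. *Ly6g* had 0 to 3 reads in NL and 0 to 2 in LD, *Chil3* 0 to 1 in both groups, and *Mpo* 0 in NL and 0 to 2 in LD. The 9 markers of lymphocytes and plasmacytoid dendritic cells, the latter a main source of interferon alpha, summed to 1.17 to 1.72 FPKM in NL and 0.579 to 1.77 FPKM in LD, with 0 of 3 tested called at the limits used and *Ms4a1* without a read. None of 6 bipolar, 6 endothelial and 8 pigment epithelium markers was called, and 1 of 6 Müller glia markers (*Glul*) was lower. NL-8 was the highest NL retina for 8 of 8 pigment epithelium markers, whose sum was 46.3 to 148 FPKM over the NL retinas, and also for the locus genes *Acta2* and *Slc16a12*, whose log2 changes without NL-8 were -0.08 and 0.31. The part of these cells in the IFIT values was not tested.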

How the data were processed

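RNA-seq was done on 5 NL and 5 LD neural retinas, with groups taken from the sample labels. According to the study's methods, RNA was extracted with TRIzol, read as pairs of 150 bases, and normalized by a sequencing company. The submitters' processing notes name TopHat2 2.0.9, Bowtie2 2.0.6 and the build mm8, but the positions in the table are those of GRCm38. The counting program is not given in the sources used here. The authors deposited 1 table of FPKM for 54532 genes. Once multiplied by gene length, every value came out as whole reads (tolerance 0.01 of a read), which gave the reads per gene. The total used by the authors was the sum of reads times a factor of 0.9512 to 0.9676 in NL and 1.041 to 1.069 in LD. Floors cover counting error only.

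The values log2(FPKM + 0.1) of the 24508 genes with at least 0.1 FPKM in 5 retinas were compared in limma 3.58.1 (R 4.3.3) with an intensity trend and no block. The limits for a call were 0.01 for the Benjamini-Hochberg adjusted p and 2 for the fold. Other steps used Python 3.11.15, pandas 2.3.3, numpy 2.4.6, Biopython 1.88 and matplotlib 3.10.9. Some genes are left out of the lists and not reported here. The members and the gene lists were chosen with earlier results of these data known. Pathway genes named are those called in a list, or the 4 with the largest change where more than 4 were called, and genes needed for their role. *Mavs* and *Irf3* were named after their values were seen. Alternatives changed the pseudocount, filter, scaling, test, limits and retinas. Promoters are from RefSeq (GRCm38.p6) and coding sequences from GENCODE M21. Protein identity was planned and not analysed here, and the coding bases were compared in its place.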

Additional observations from a re-analysis of the deposited data

Results flagged for a closer look

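In the 84 groups of 5 retinas formed by the members and the other genes named by rule, 3 had a retina far from the other 4 by Dixon's criterion, where chance alone flags about 1 in 20 groups (4.20 here). For *Ifit1* this was LD-8, with 20.6 FPKM where the rest of its group had 28.6 to 31.4 FPKM, and still far above all NL retinas. For *Ch25h* it was NL-1, with 1.56 FPKM where the rest of NL had 0 to 0.258 FPKM. *Acta2*, the smooth muscle actin gene near the IFIT cluster, had 3.57 FPKM in NL-8 and 0.608 to 1.08 FPKM in the rest of NL.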

How the results depend on the processing

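The number of IFIT members past both limits was 4 under 2 of 22 alternatives and 5 under the others. It was 4 with a pseudocount of 1, which lost *Ifit1bl2*, and with a filter of 1 FPKM in 5 retinas, which left only 4 members to test. No member or other named gene that was called changed direction. The number of all genes called was 816 with a pseudocount of 1, 6818 at an adjusted p under 0.05 with any fold, and 808 in the replicate block over the 8 retinas with shared numbers, against 1595 as reported and 1182 for the same 8 retinas with no block. It was 1379 to 1603 on leaving out each retina. The pathway count of 35 was 28 to 52 over all alternatives, and 34 to 35 on leaving out each retina. The count of 2 at the locus was 1 with the closest pairs of retinas averaged, 1 with the filter of 1 FPKM, 1 in the replicate block and 4 at an adjusted p under 0.05 with any fold. In the block 30 pathway genes and 5 members were past the limits, and *Ch25h* (3.79, adjusted p = 0.0197 in limma) and *Ifnlr1* (1.37, adjusted p = 0.0479) lost their calls with folds about as large. In the same 8 retinas with no block the adjusted p of *Ifnlr1* was 0.0131. The retinas share only a number: same-numbered retinas had correlations of 0.057, 0.066, -0.012 and -0.089 of their deviations from the group means, so that not every retina correlated best with its own number. With the longer ISRE, 4 members in place of 5 had a match. Members at 1 to 28 reads per NL retina (*Ifit1*, *Ifit1bl1*, *Ifit1bl2*) have folds limited by low counts and dependent on the pseudocount. The log2 change of *Ifit1* was 4.44 to 6.39 over the alternatives. It was 4.44 with a pseudocount of 1, 6.39 with one of 0.01 and in limma-voom, and 5.96 to 6.15 on leaving out each retina. The comparison of proteins and its alternative were not run.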
